A study of Mus musculus with 111 samples.

Results

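The late response of mouse lung to bleomycin was set against the early inflammatory response, gene by gene. For each of the 15707 genes measured by a probeset that stands for 1 gene, the bleomycin-minus-saline response was averaged over days 21, 28 and 35 (late) and over days 1 and 2 (early), each day against its own saline group, and the difference of both averages was tested. The comparison used 80 arrays of the series. The other 31, of days 7 and 14, served to tell whether a change had been present throughout and to estimate the common spread. They also entered the choice of 1 probeset per gene, and their saline mice entered the values given against all saline mice pooled. Male C57BL6/J mice, bought at 7 to 9 weeks of age, received a single spray of bleomycin at 2 U/kg in 50 µl saline into the trachea, or the same volume of saline alone. RNA came from whole left and right lungs and was hybridised to Affymetrix whole-genome mouse arrays, 8 bleomycin mice and 8 saline mice on each of the 5 days. A single dose limits the model to 1 round of injury, and all mice were male and of 1 strain. Each mouse was killed once, so that no animal was followed over time. In whole lung, fewer cells of a type and less RNA per cell cannot be told apart.

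Bleomycin cuts DNA, and the instilled lung first shows a damage and innate immune response. Damaged cells stabilise p53, whose targets stop the cell cycle, while macrophages and epithelium release chemokines that draw in neutrophils and monocytes, and interferons switch on a common set of antiviral genes. Fibroblast activation, matrix deposition and the arrival of monocyte-derived macrophages follow, and in the mouse this fibrosis is known to resolve in part. Lung identity was checked on the arrays: Sftpc (surfactant protein C, alveolar type II cells), Ager (alveolar type I cells) and Scgb1a1 (club cells) had mean log2 levels of 14.44, 14.04 and 14.56, Cldn5 (endothelium) 13.03 and Foxj1 (ciliated cells) 9.71, while the liver gene Alb was at 6.65.

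Some mice stood apart from their groups. Over the 145 genes that changed more than 2-fold late, each signed so that the late change is positive, the median deviation from the saline mean of the day was -0.01 on the log2 scale in bleomycin mouse 4 of day 21, whereas the other 23 late bleomycin mice lay between 0.59 and 2.30 and the 24 late saline mice between -0.19 and 0.30. Over the 90 genes up (0.573% of genes tested) and 21 genes down (0.134%) more than 2-fold early, bleomycin mouse 8 of day 1 was at 0.05 and bleomycin mice 5 and 8 of day 2 were at 0.15 and 0.28. The other early bleomycin mice lay between 0.64 and 2.44, and the early saline mice between -0.11 and 0.09. These genes were chosen on the same mice, so these values describe how uneven the response was and test nothing. Saline mouse 4 of day 21 had an Ighm level of 14.39, against at most 7.62 in the other saline mice of that day. All of these mice were kept. Leaving out each of the 5 in turn gave 57 to 68 genes higher and 42 to 54 genes lower late, against 61 (0.388% of genes tested) and 42 (0.267%) with all mice.

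The saline mice themselves differed between days. Over the 5 days, 7972 of 15707 genes (50.75%) differed among the saline groups at an adjusted p under 0.05, although the range of the saline means was over 2-fold for only 156 genes. Among those 90 and 21 early changes, 15 passed that test and 20 had a range over 2-fold. Each response is therefore read against saline mice of the same day, and the saline levels are given for some of the named genes in which they moved.

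The sequences just upstream of some genes that lost most of their early response are shown because they hold motifs known for interferon and inflammatory signalling. Each of these genes was still higher than saline late. Against all saline mice pooled, Cxcl10, Cxcl1 and Cxcl2 were still over 2-fold higher late (1.12, 1.14 and 1.03 on the log2 scale). The interferon-stimulated response element was searched as GAAA, any 2 bases and GAAA, and the NF-kappaB site as GGGA, any 4 bases and CC, on both strands, in the 250 bases before each gene's start in RefSeq (GRCm38.p6). Capitals mark the matches, overlapping matches count as 1 stretch, and all sequences run 5′ to 3′ on the strand of the gene.
Rsad2, chr12:26456453-26456702, minus strand: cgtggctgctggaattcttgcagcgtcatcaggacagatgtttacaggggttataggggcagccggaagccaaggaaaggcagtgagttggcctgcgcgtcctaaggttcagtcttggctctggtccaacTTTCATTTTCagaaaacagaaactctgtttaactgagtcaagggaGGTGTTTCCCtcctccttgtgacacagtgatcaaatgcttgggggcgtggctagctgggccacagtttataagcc
Cxcl10, chr5:92348890-92349139, minus strand: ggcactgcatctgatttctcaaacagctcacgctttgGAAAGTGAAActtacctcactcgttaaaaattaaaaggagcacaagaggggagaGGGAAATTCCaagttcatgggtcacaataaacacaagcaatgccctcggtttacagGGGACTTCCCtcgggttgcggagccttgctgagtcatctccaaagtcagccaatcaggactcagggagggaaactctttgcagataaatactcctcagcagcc
Cxcl1, chr5:90890995-90891244, plus strand: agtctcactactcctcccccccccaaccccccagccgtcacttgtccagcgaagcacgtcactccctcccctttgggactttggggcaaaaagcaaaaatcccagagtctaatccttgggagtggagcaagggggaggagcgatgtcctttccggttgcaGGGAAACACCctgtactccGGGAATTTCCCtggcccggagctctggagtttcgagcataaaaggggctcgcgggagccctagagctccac
Cxcl2, chr5:90903649-90903898, plus strand: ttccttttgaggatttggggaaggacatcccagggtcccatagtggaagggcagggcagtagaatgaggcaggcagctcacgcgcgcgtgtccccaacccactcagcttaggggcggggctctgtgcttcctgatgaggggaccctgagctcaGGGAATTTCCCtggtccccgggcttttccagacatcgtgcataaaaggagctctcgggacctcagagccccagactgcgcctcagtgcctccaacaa
Rsad2, which encodes the antiviral enzyme viperin, had 1 match of the interferon motif on the opposite strand, beginning 120 bases before the start, and 1 NF-kappaB match. Cxcl10, an interferon-induced chemokine, had 1 interferon match at 213 to 204 bases and 2 NF-kappaB matches. The neutrophil chemokine genes Cxcl1 and Cxcl2 had no interferon match and 2 and 1 NF-kappaB stretches, the stretches nearest the start lying at 71 to 61 and 97 to 87 bases.

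Of the genes whose response was lower late than early by more than 2-fold, 31 of 42 had a promoter in the table, and 7 of these (22.6%) held the interferon motif. In the 47 promoters of the 61 genes that were higher late it occurred 0 times, and it was in 3% of the 12453 promoters of all genes tested and in 2.98% of the 32851 promoters of the table. The NF-kappaB motif was in 35.5% of the 31 and 14.9% of the 47 promoters, against 25.5% of all genes tested. Among early changes that persisted upward, 3 of 21 promoters (14.3%) held the interferon motif and 9 (42.9%) the NF-kappaB motif. The interferon motif was in 5 of 34 promoters (14.7%) of the genes whose early rise was reduced and in 0 of 6 of those whose rise was gone. A match is only a run of letters, and binding was not measured.

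Late and early response differed widely but mostly by little. The late response was higher for 2557 genes (16.3%) and lower for 1910 (12.2%) at an adjusted p under 0.05 (limma), and the difference exceeded 2-fold for 61 (0.388%) and 42 (0.267%). Over all genes the median difference was 0.00 on the log2 scale. In the late response itself 4261 genes rose (27.1%) and 4019 fell (25.6%), 105 (0.668%) and 40 (0.255%) of them by more than 2-fold. In the early response 3069 rose (19.5%) and 3408 fell (21.7%), 90 (0.573%) and 21 (0.134%) by more than 2-fold. Counts over gene lists use the adjusted p alone and are to be read against these shares. Without the 2-fold threshold, 3622 genes changed in the same direction in both periods and 537 in opposite directions. Of these 537, 360 were down early and up late and 177 up early and down late.

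**Figure D1:**
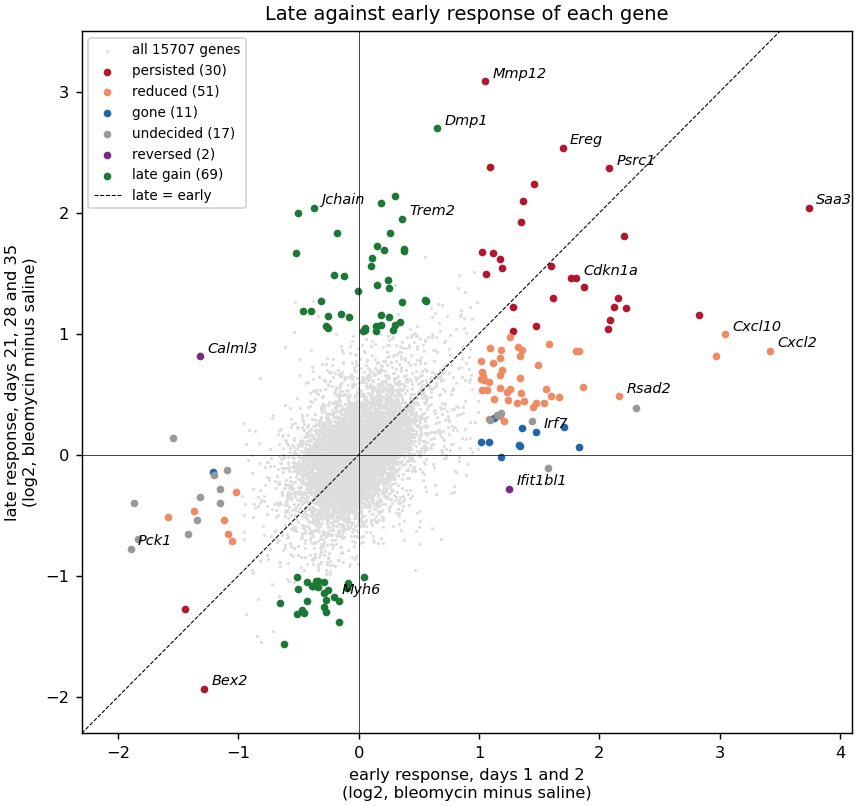
Late response (mean of days 21, 28 and 35, vertical axis) against early response (mean of days 1 and 2, horizontal axis) of every gene tested, both as log2 bleomycin minus saline; points are genes and colours mark what became of the early changes. Of the 90 genes up early, 12 lie beyond the diagonal of equal response and most of the others between it and the horizontal line of no late response, and the 69 genes gained late, 43 up and 26 down, are those that did not pass early.

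Each early change was sorted by its late response, which the sorting uses, so the counts describe and test nothing. An early change had persisted if the late response passed the test in the same direction at over 2-fold, was reduced if it passed at less than 2-fold, gone if it did not pass and its 95% interval lay inside 1.5-fold, undecided if it did not pass and the interval was wider, and reversed if it passed in the other direction. Of the 90 genes up early, 28 persisted (31.1%), 45 were reduced (50%), 10 were gone (11.1%), 6 were undecided and 1 had reversed. Of the 21 genes down early, 2 persisted, 6 were reduced, 1 was gone, 11 were undecided (52.4%) and 1 had reversed. The median late response was 50.1% of the early one for the genes up early, with quartiles of 28.1% and 74%, and 33.7% for those down early. For 12 of the 90 it exceeded 100%. The thresholds cut a continuum: just inside the 2-fold limit of the early response were Gtse1 (1.01) and Aldh1a3 (1.02), just outside it Clec4e (0.99) and Ccl22 (0.99), and Orm2 (-1.01) and Cmpk2 (-0.98) stood on either side of the limit for the difference.

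**Figure D2:**
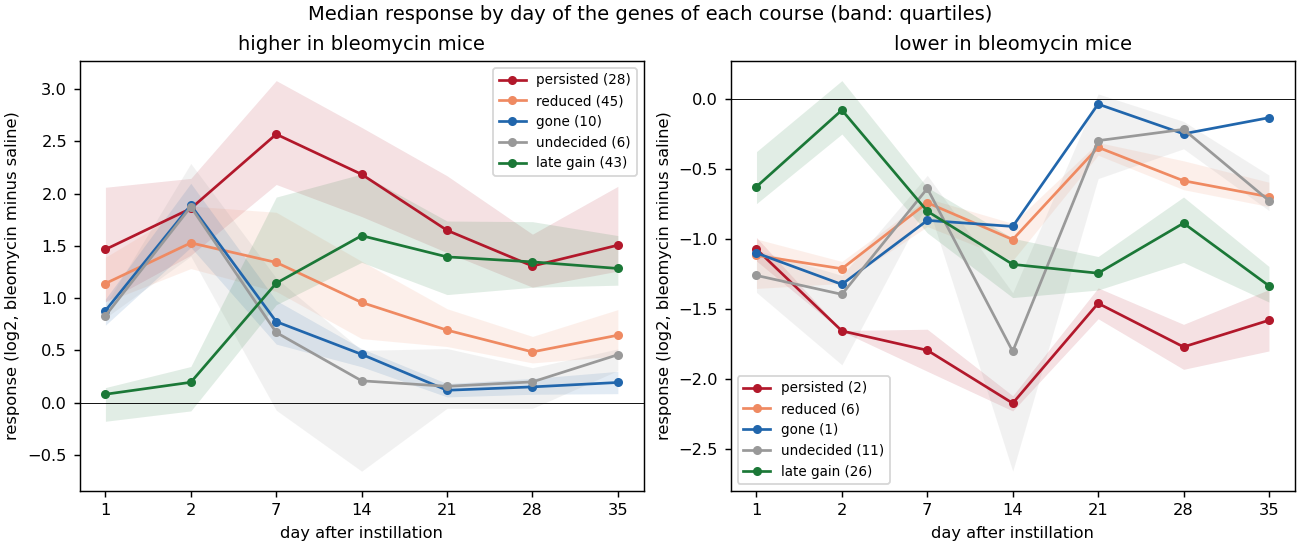
Median bleomycin-minus-saline response (log2, vertical axis) over the 7 days (horizontal axis) of the genes sorted by what became of their early change, with the quartiles as a band; genes up are in the left panel, genes down in the right one. Among genes up, those that were gone fell to a median of 0.12 by day 21, and persisted genes stayed at 1.31 or above on every day. Genes gained late rose to 1.14 by day 7, were highest on day 14 (1.598) and kept 1.28 on day 35.

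The antiviral interferon response faded in nearly every member. All 17 measured interferon-stimulated genes rose early and 6 rose late, and the difference was lower late for 16 of them, with Oas2 as the exception (late 0.70, early 1.19, difference -0.49, adjusted p = 0.0844). Their median response was 0.14 late and 1.19 early, against 0.01 late and -0.01 early over all genes tested. By day the median was 0.69 on day 1, 1.79 on day 2, 0.54 on day 7, 0.34 on day 14, and 0.14, 0.13 and 0.15 on days 21, 28 and 35. Per array, the mean deviation of the 17 genes ran from -0.18 to 0.80 in late bleomycin and -0.32 to 1.06 in late saline mice. Early, it ran from -0.21 to 2.38 in bleomycin mice and from -0.28 to 0.18 in saline mice. The late ranges therefore overlapped widely, while the median over mice was 0.22 in late bleomycin and -0.05 in late saline mice. Among saline mice of day 21, mouse 4 had the highest levels of Oasl1 (8.60, next 7.16) and Rsad2 (10.70, next 9.84).

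Irf7, the transcription factor that amplifies type I interferon production, had late bleomycin deviations from the saline mean of -0.50, 0.05 and 1.17 (lowest, median and highest of 24 mice), against -0.40, -0.04 and 1.26 in the 24 late saline mice. Early, the bleomycin mice were at -0.48, 1.26 and 3.06 (n = 16) and the saline mice at -0.26, -0.01 and 0.25 (n = 16). No late bleomycin mouse and 14 of 16 early ones exceeded every saline mouse of the period. The late response of Irf7 was 0.19 ± 0.14 (SE, 95% interval -0.08 to 0.47), the early one 1.48 ± 0.17, and the difference -1.28 ± 0.22 (adjusted p = 1.77e-06, limma). Without day 2 the difference for Irf7 was -0.63 (adjusted p = 0.0806).

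The other interferon genes followed this course with different remainders. Mx2, a dynamin-like antiviral GTPase, was at 0.09 late and 1.33 early and counted as gone, as did Oasl1 (0.23 and 1.71), Oasl2 (0.11 and 1.09) and the chemokine Cxcl11 (0.08 and 1.34), whose probeset of highest level gave a difference of only -0.08. Rsad2 stayed at 0.48 late after 2.17 early (difference -1.68, adjusted p = 8.67e-07), and Mx1 at 0.56 after 1.87. Without day 2 the difference was -0.84 (adjusted p = 0.0501) for Mx1 and -0.60 (adjusted p = 0.0891) for Cxcl11. Cxcl10, which draws activated T cells, stayed at 1.00 late after 3.05 early (difference -2.05 ± 0.37, adjusted p = 7.71e-06), with 2.50 on days 7 and 14 together. Only 3 of 24 late bleomycin mice exceeded every late saline mouse for Cxcl10, because 1 saline mouse reached 2.02, and 14 of 16 did so early.

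Several interferon genes also differed within the early period. Between day 2 and day 1, 379 genes (2.41%) were higher on day 2 and 292 (1.86%) lower, with 40 (0.255%) and 3 (0.0191%) past 2-fold. Among the 44 genes named here by a rule, 6 differed: on day 1 and day 2 the response was 0.82 and 2.13 for Irf7, 0.71 and 1.96 for Mx2, 1.09 and 2.52 for the oligoadenylate synthetase Oas3, 0.67 and 2.01 for Cxcl11, 0.89 and 1.83 for Gm9706 and -0.17 and 1.11 for Ifi213. Between day 35 and day 21 only 4 genes (0.0255%) were higher and 2 (0.0127%) lower, and none of the 44 was among them. Without day 2 the difference between late and early response was -0.23 (adjusted p = 0.674) for Oas3.

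A pair of interferon-inducible genes ended below saline. Ifit1bl1, a member of the interferon-induced tetratricopeptide family, had late bleomycin deviations of -0.95, -0.20 and 0.23, against -0.30, -0.02 and 0.29 in late saline mice, and early bleomycin deviations of 0.17, 1.48 and 2.26, against -0.41, 0.02 and 0.40 in early saline mice. Late, 10 of 24 bleomycin mice lay below every saline mouse, and early 13 of 16 lay above. It was 1 of 2 early changes that reversed (late -0.28, adjusted p = 0.0133; early 1.25; difference -1.53 ± 0.16, adjusted p = 5.01e-13), and its daily response was 1.08, 1.42, 0.51, -0.02, -0.14, -0.20 and -0.50 on days 1 to 35. Ifi213, of the interferon-inducible DNA-sensor family, was at -0.95 late and 0.47 early (difference -1.42, adjusted p = 3.77e-07).

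The neutrophil chemokines rose steeply early and dropped late. Of 8 measured, 4 rose and 1 fell late, 6 rose and 1 fell early, and the difference was lower late for 6 and higher for 1; the median response was 0.28 late and 1.29 early. Cxcl2, a ligand of CXCR2 that recruits neutrophils, had late bleomycin deviations of -1.58, 0.79 and 4.25, against -1.35, 0.01 and 1.75 in late saline mice, and early bleomycin deviations of 0.40, 3.58 and 5.08, against -0.68, -0.05 and 2.04 in early saline mice. Late, 5 of 24 bleomycin mice exceeded every saline mouse, and early 15 of 16 did. The response was 0.86 ± 0.26 late and 3.42 ± 0.31 early (difference -2.55 ± 0.41, adjusted p = 3.98e-07), the largest drop of all genes with a called difference.

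Much of the daily course of Cxcl2 lay in the saline mice. Its bleomycin means were 8.97, 9.44, 7.98, 8.41, 7.75, 8.21 and 7.83 in the order of the days, and the saline means of those days were 5.55, 6.03, 6.94, 8.77, 6.16, 8.41 and 6.64 (adjusted p = 8.42e-07 for a difference among the 5 saline groups). The response therefore was -0.36 on day 14, 1.59 on day 21, -0.20 on day 28 and 1.20 on day 35. Against all saline mice pooled, Cxcl2 was at 1.03 late and 2.31 early (difference -1.28, adjusted p = 0.00422). That drop was smaller than the one of Cxcl10 against pooled saline (-1.74). Cxcl3, a ligand of the same receptor, moved likewise, with saline means of 4.46, 4.98, 8.26 and 7.92 on days 1, 2, 14 and 28, and its difference of -1.92 (adjusted p = 1.7e-06) became -0.81 (adjusted p = 0.106) against pooled saline. The part of the saline mice in these results was not tested.

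Cxcl1 and Cxcl5 showed the same order. Cxcl1, the second main CXCR2 ligand of the mouse, was at 0.81 ± 0.26 late and 2.97 ± 0.31 early (difference -2.15 ± 0.40, adjusted p = 1.37e-05), with 6 of 24 late and 13 of 16 early bleomycin mice above every saline mouse. Its saline means moved too, from 6.34 and 6.26 on days 1 and 2 to 7.20 and 7.34 on days 21 and 28 (adjusted p = 0.045 among the 5 saline groups). Against pooled saline Cxcl1 was at 1.14 late and 2.31 early (difference -1.17, adjusted p = 0.000792, limma) and counted as persisted. Cxcl5, which epithelium makes, was at 0.86 late and 1.83 early (difference -0.97, adjusted p = 0.0115), and without day 2 the difference was -0.86 (adjusted p = 0.0927). The markers of neutrophils themselves moved less: of 15, 5 rose and 4 fell late, 7 rose and none fell early, and the difference passed for 1 in each direction, Mmp9 (-0.98) and Ltf (1.58). Acod1, which makes itaconate in activated macrophages, was gone late (0.06 ± 0.25, interval -0.44 to 0.56) after 1.83 early, although 1 bleomycin mouse of day 28 still deviated by 3.42. That late mean combines -0.72 on day 21 with 0.44 and 0.47 on days 28 and 35, and against pooled saline Acod1 was undecided. The difference for Acod1 was -1.77 (adjusted p = 0.000286), and -1.09 (adjusted p = 0.103) without day 2.

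Most acute-phase genes were above saline in both periods. Of 13 measured, 10 rose and 1 fell in both periods, and the difference was lower late for 5 and higher for 2. Saa3, the serum amyloid of inflamed tissue, was at 2.04 ± 0.30 late and 3.74 ± 0.36 early (difference -1.70, adjusted p = 0.00322), with a late bleomycin median of 2.12 and an early one of 4.67, against -0.11 and -0.10 in saline mice. Late, 10 of 24 bleomycin mice exceeded every saline mouse, the highest of which deviated by 2.44, and early 14 of 16 did. Il6, the cytokine that drives this programme, was at 1.16 ± 0.35 late and 2.83 ± 0.43 early (difference -1.68, adjusted p = 0.0144). Without day 2 the differences were -1.49 (adjusted p = 0.0527) for Saa3 and -1.31 (adjusted p = 0.16) for Il6, and Il6 gave an adjusted p of 0.053 without day 35. Timp1, an inhibitor of matrix metalloproteinases that Il6-family cytokines induce, was at 1.11 late and 2.09 early (difference -0.98, adjusted p = 0.0164). Itih4 fell late (-0.46) after a rise early (0.51), Fgb fell early (-0.15), and the differences higher late were those of Fgb (0.20) and Ltf (1.58).

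As a group, the p53 targets kept a positive median on every day. Of 19 measured, 13 rose and 1 fell late, 14 rose and none fell early, and the difference was lower late for 10 and higher for none. Their median response was 0.28 late and 0.56 early, and by day it lay at 0.65, 0.48, 0.50, 0.50, 0.35, 0.35 and 0.28. Per array, the mean deviation of these genes ran from 0.05 to 0.65 in late bleomycin mice, against -0.09 to 0.06 in late saline mice. Early, it ran from -0.01 to 1.13 in bleomycin mice, against -0.03 to 0.07 in saline mice. The lowest early value fell among the saline mice.

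Cdkn1a, which encodes the cell cycle inhibitor p21, had late bleomycin deviations of -0.02, 1.55 and 2.06, against -0.43, -0.06 and 0.52 in late saline mice, and early bleomycin deviations of -0.58, 2.04 and 3.05, against -0.48, 0.02 and 0.51 in early saline mice. Of the 24 late bleomycin mice 23 exceeded every saline mouse, and 14 of 16 did early. The daily response lay between 1.28 on day 28 and 2.20 on day 1, and the difference between late (1.46 ± 0.14) and early (1.80 ± 0.17) was -0.34 ± 0.22 (adjusted p = 0.245). The saline means of Cdkn1a differed between days (adjusted p = 0.0139), and the difference passed against pooled saline (-0.67, adjusted p = 0.000455), without day 2 (-0.74, adjusted p = 0.0389) and with array weights (-0.46, adjusted p = 0.0312). Eda2r, a receptor of the tumour necrosis factor family induced by p53, stood at 1.39 late and 1.87 early (difference -0.48, adjusted p = 0.0711). Ccng1 and Aen, a cyclin and an exonuclease induced by p53, passed for the difference at 0.91 late and 1.58 early, and at 0.55 late and 1.26 early. Zmat3 was at 0.63 late and 0.66 early.

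Other early changes that persisted came from different groups. Psrc1, a p53-responsive spindle protein, was strongly up in both periods (2.37 ± 0.18 late, 2.08 ± 0.22 early), with 23 of 24 late and 13 of 16 early bleomycin mice above every saline mouse. Ereg, the epidermal growth factor receptor ligand epiregulin, was at 2.54 late and 1.70 early, Ccl12, a chemokine for monocytes, at 1.80 and 2.20, Ms4a6d, of macrophages, at 1.56 and 1.59, Adamts4, a protease that cleaves aggrecan, at 1.46 and 1.77, and Chl1, a neural cell adhesion molecule, at 2.23 and 1.46. For none of these 6 did the difference pass (adjusted p = 0.486, 0.101, 0.426, 0.918, 0.594 and 0.235, in the order named). Against pooled saline it passed for Ereg (1.07, adjusted p = 0.00105) and Chl1 (0.81, adjusted p = 0.0442), both higher late. It also passed for Ereg without day 28 (1.18) and without bleomycin mouse 4 of day 21 (1.01), and for Chl1 without day 2 (1.75). A missed test does not show equal responses. Bex2 and Asgr1 were the persisted genes that were down: Bex2 was at -1.93 late and -1.28 early (difference -0.65, adjusted p = 0.02), with 23 of 24 late and 15 of 16 early bleomycin mice below every saline mouse, and Asgr1, known as a hepatocyte receptor for galactose-ended glycoproteins, at -1.28 late and -1.45 early.

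**Figure D3:**
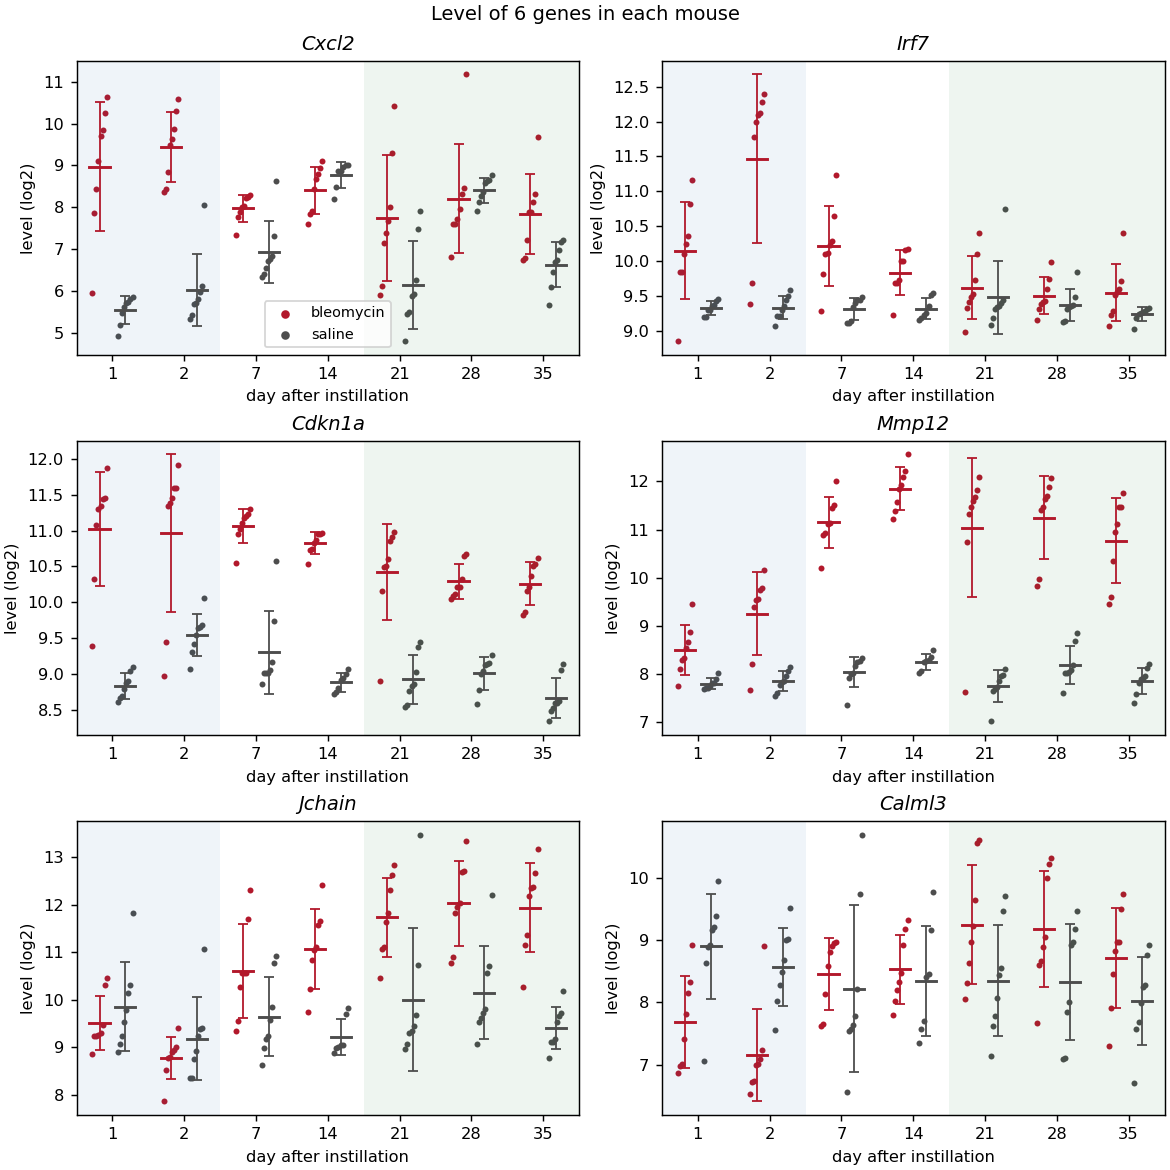
Log2 level in each mouse (vertical axis) of Cxcl2, Irf7, Cdkn1a, Mmp12, Jchain and Calml3 on each day (horizontal axis), bleomycin left of saline. Points are mice, bars the group mean and lines the SD, with early days shaded blue and late days green. Against saline of the day, Cxcl2 and Irf7 are high early, and Cdkn1a in both periods (mean response 1.46 late, 1.80 early). Mmp12 and Jchain are high late (3.09 and 2.04), and Calml3 lies below saline early and above it late.

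Few early changes met the rule for a return. A change counted as recurred if it was present late but the mean of days 7 and 14 did not pass in that direction, and 3 genes met this: Cxcl2, Ly6i and Fgg. A mean that does not pass is no proof of absence: the responses on days 7 and 14 were 1.03 and -0.36 for Cxcl2 and 0.51 and -0.36 for Fgg. Ly6i, an interferon-inducible surface protein of monocytes, was at 0.48 late, -0.01 on days 7 and 14 and 1.67 early, and no late bleomycin mouse exceeded the highest saline mouse. Its difference was -1.18 (adjusted p = 0.000658), and -0.91 (adjusted p = 0.0511) without day 2. Fgg, the fibrinogen gamma chain, was at 0.53 late, 0.08 on days 7 and 14 and 1.07 early, with 1.26 on day 21 but 0.11 and 0.23 on days 28 and 35. Its saline means were 6.51, 7.31, 7.06, 7.88, 6.21, 7.62 and 6.85 in the order of the days (adjusted p = 4.06e-05 among the 5 saline groups). Against pooled saline Cxcl2 was present throughout and Fgg was not an early change. Of the 3, Ly6i alone recurred in both readings, where Apod was the other gene.

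The genes that were down early included fat and airway genes. Of 9 markers of adipocytes, 8 fell early and none rose, while 2 fell and none rose late, with medians of -0.28 late and -0.93 early. Adipoq (adiponectin) was at -0.69 late and -1.84 early, and Pck1, an enzyme of glyceroneogenesis in fat, at -0.77 and -1.89. Both were undecided, because their late intervals ran from -1.58 to 0.20 and from -1.68 to 0.13, and the saline mice alone spread from -2.19 to 2.00 for Adipoq late. Per array, the mean deviation of the adipocyte markers ran from -1.76 to 1.73 in late bleomycin and -1.31 to 1.51 in late saline mice. Early, it ran from -2.12 to 0.15 in bleomycin mice and from -1.37 to 1.92 in saline mice. The fat content of each sample was not tested as a part of this result. Of 19 markers of ciliated cells, 12 fell and 1 rose early, 2 fell and 3 rose late, and the difference was higher for 8 and lower for 1. Dnah5 and Dnah9, motor proteins of cilia, were at 0.20 and 0.04 late and -0.45 and -0.43 early. Early the mean deviation of ciliated markers per array ran from -0.47 to -0.02 in bleomycin mice and from -0.54 to 0.27 in saline mice. The groups therefore overlapped.

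Calml3, a calmodulin-like protein of stratified and airway epithelium, was the early decrease that reversed. Late bleomycin mice were at -0.72, 0.77 and 2.26, against -1.31, 0.04 and 1.37 in late saline mice, and early bleomycin mice at -2.03, -1.53 and 0.34, against -1.85, 0.07 and 1.05 in early saline mice. Only 7 of 24 late mice lay above every saline mouse and 4 of 16 early mice below. The response was 0.81 ± 0.24 late and -1.32 ± 0.30 early (difference 2.13 ± 0.38, adjusted p = 5.53e-06). Against pooled saline Calml3 was at 0.66 late and -0.97 early (difference 1.63, adjusted p = 3.17e-07, limma). The early decrease was then under 2-fold, so Calml3 did not count as an early change. Nnat, a small membrane proteolipid best known from brain, was at 1.26 late and -0.53 early, both past the test. Tfap2a, a transcription factor of epithelium, was at 1.19 late and -0.46 early, where it did not pass (adjusted p = 0.1).

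Macrophage genes of lipid handling and the lysosome were higher late. Of 14 genes known from lipid-associated macrophages, 11 rose and 1 fell late, 5 rose and none fell early, and the difference was higher for 9 and lower for 1, with medians of 0.75 late and 0.22 early. Mmp12, the macrophage elastase, had late bleomycin deviations of -0.12, 3.48 and 4.35, against -0.73, -0.02 and 0.65 in late saline mice, and early bleomycin deviations of -0.18, 0.96 and 2.31, against -0.30, 0.00 and 0.30 in early saline mice. The lowest late bleomycin value belonged to mouse 4 of day 21, and the other 23 exceeded every saline mouse, as did 14 of 16 early. The response was 3.09 ± 0.18 late and 1.05 ± 0.22 early (difference 2.04 ± 0.29, adjusted p = 1.51e-08), so Mmp12 had already risen early.

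Trem2, a lipid-sensing receptor of macrophages, did not pass early (0.36, adjusted p = 0.0713) and was at 1.95 ± 0.14 late (difference 1.59 ± 0.21, adjusted p = 4.13e-09). Late bleomycin mice were at -0.45, 2.26 and 2.71, against -0.34, -0.13 and 1.58 in late saline mice, the highest of them saline mouse 4 of day 21, and 18 of 24 bleomycin mice exceeded it. Gpnmb, Ctsk and Acp5, a transmembrane glycoprotein, a cathepsin and an acid phosphatase of such cells and of osteoclasts, were at 1.69, 1.41 and 1.16 late and 0.21, 0.30 and -0.14 early. Of 18 lysosomal genes, 16 rose late and none fell, 6 rose and 3 fell early, and the difference was higher for 16 and lower for none. Markers shared by all macrophages also moved, 12 of 14 up in both periods, with 1 down early, and medians of 0.76 late and 0.46 early. For 8 of these 14 the difference was higher late and for none lower, so a late excess was not particular to lipid handling and the lysosome. The part of these shared markers in the lipid-handling and lysosomal results was not tested.

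Immunoglobulin genes rose late with a wide spread. Jchain, the chain that joins secreted IgA and IgM, had late bleomycin deviations of 0.45, 1.92 and 3.77, against -1.07, -0.31 and 3.47 in late saline mice, and early bleomycin deviations of -1.32, -0.40 and 0.60, against -0.96, -0.16 and 1.97 in early saline mice. Because saline mouse 4 of day 21 was so high, 1 late bleomycin mouse exceeded every saline mouse. The response was 2.04 ± 0.25 late and -0.37 ± 0.30 early (difference 2.42 ± 0.39, adjusted p = 6.29e-07), and by day it was -0.34, -0.40, 0.96, 1.85, 1.73, 1.87 and 2.53. Igha and Ighm, the heavy chain constant regions of IgA and IgM, were at 1.83 and 2.00 late and -0.18 and -0.50 early. Ighm had the widest error (difference 2.50 ± 0.83, adjusted p = 0.0156), and it did not pass without day 1 (2.54, adjusted p = 0.076), without day 2 (2.46, adjusted p = 0.0729) or without day 35 (2.10, adjusted p = 0.0748).

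Over the whole list of 13 plasma cell genes, 6 rose and 2 fell late, 1 rose and 1 fell early, and the difference was higher for 5. B cell markers went the other way: all 10 fell late and 6 fell early, with medians of -0.68 late and -0.31 early, and the difference was lower for 2. Probesets of immunoglobulin genes belong to a family of near-identical members, and signal from such members cannot be separated on the array.

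More fibrillar collagens and genes of transitional and basal-like epithelium were up late than early. Of 11 fibrillar collagens, 8 rose late and 2 early, and the difference was higher for 4. Their median response was 0.96 on day 7 and 1.11 on day 14, and 0.52, 0.30 and 0.45 on days 21, 28 and 35, so the peak lay between both periods. Col1a2, Col3a1 and Col5a2 were at 0.48, 0.71 and 0.71 late and 0.18, 0.35 and 0.08 early, and the minor fibrillar collagen gene Col24a1 was at 1.63 late and 0.11 early. For Col3a1 the difference did not pass (0.35, adjusted p = 0.0988). Dmp1, a matrix protein known from mineralised tissue, was at 2.70 ± 0.30 late and 0.65 ± 0.37 early (difference 2.05 ± 0.47, adjusted p = 0.000384), after 4.38 on days 7 and 14. Of 18 genes of the transitional and basal-like epithelium of injured alveoli, 14 rose and 1 fell late and 5 rose and 2 fell early. Krt14 and Krt5, basal keratins, were at 0.69 and 0.63 late and -0.02 and -0.06 early, and Itgb6, an integrin subunit that activates latent transforming growth factor beta, at 0.85 and 0.05.

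Several of the largest late gains have no place in these groups. Fxyd4, a regulator of the sodium pump, was at 2.08 ± 0.15 late and 0.18 ± 0.19 early (difference 1.90 ± 0.24, adjusted p = 7.78e-10), with 23 of 24 late bleomycin mice above every saline mouse. Stra6l, known as a receptor for retinol-binding protein, was at 2.14 and 0.31, with late responses of 2.17, 2.14 and 2.09 on days 21, 28 and 35. Gp2, a membrane protein of secretory and M cells, was at 1.67 late and -0.52 early (difference 2.19, adjusted p = 0.00252) with an SE of 0.59, and its difference was 1.83 (adjusted p = 0.0706) without day 1. Chodl, a lectin-like membrane protein, was at 1.83 and 0.26. Its bleomycin mean was 9.3 on day 7, against 5.24 in saline mice, and 8.82 on day 14, against 4.97. On days 21, 28 and 35 the bleomycin means were 7.27, 7.03 and 6.55, against saline means of 5.25, 5.15 and 4.95. The peak of Chodl therefore lay between both periods. Of the 103 genes with a difference past 2-fold, 37 had 70 further probesets, of which 69 had the same sign, 59 passed with it and none passed with the other.

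Mitotic genes were higher late on average. Of 24 genes of mitosis, 23 rose late and none fell, 2 rose and 2 fell early, and the difference was higher for 15, with medians of 0.41 late and 0.01 early. By day the median was -0.37, 0.38, 1.80, 1.67, 0.79, 0.29 and 0.13, so that the peak lay between both periods and day 21 was the highest of the late days. Day 2 stood above days 28 and 35, and day 1 below all late days. Of 25 genes of DNA replication, 12 rose and 1 fell late, 13 rose and none fell early, and the difference passed for none. Bub1, a spindle checkpoint kinase, was at 0.31 late and -0.47 early, and Cdk1, the kinase that starts mitosis, at 0.72 and 0.14.

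Genes of the vessel wall, cytotoxic lymphocytes, platelets and heart were lower late. Of 23 endothelial markers, 16 fell and 2 rose late, 3 fell and 4 rose early, and the difference was lower for 17 and higher for 1. Eng and Plvap, an endothelial receptor of the transforming growth factor beta family and a diaphragm protein, were at -0.68 and -0.58 late and 0.02 and 0.01 early, whereas the adhesion molecules Sele and Selp, which activated endothelium displays to leukocytes, rose early (0.83 and 1.18) and were at -0.02 and 0.34 late. Of 14 markers of natural killer and cytotoxic T cells, 12 fell late and none rose, 2 rose early and none fell, and the difference was lower for 12. The cytotoxic protease gene Gzmb was at -0.63 late and 0.47 early (difference -1.10, adjusted p = 1.55e-09).

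Of 8 platelet genes, 7 fell late and 1 rose early, and the difference was lower for 7, with Tubb1, the platelet tubulin, at -0.90 late and -0.07 early. Of 11 genes of heart muscle, 10 fell late and none passed the test early. Their median response was -0.84 late and -0.31 early. Per array, however, their mean deviation late ran from -2.92 to 1.11 in bleomycin mice and from -2.41 to 1.01 in saline mice. The difference passed for Actc1 alone (-0.61, adjusted p = 0.00472). Pulmonary veins of mice carry heart muscle, and how much each sample carried was not tested as a part of this result.

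**Figure D4:**
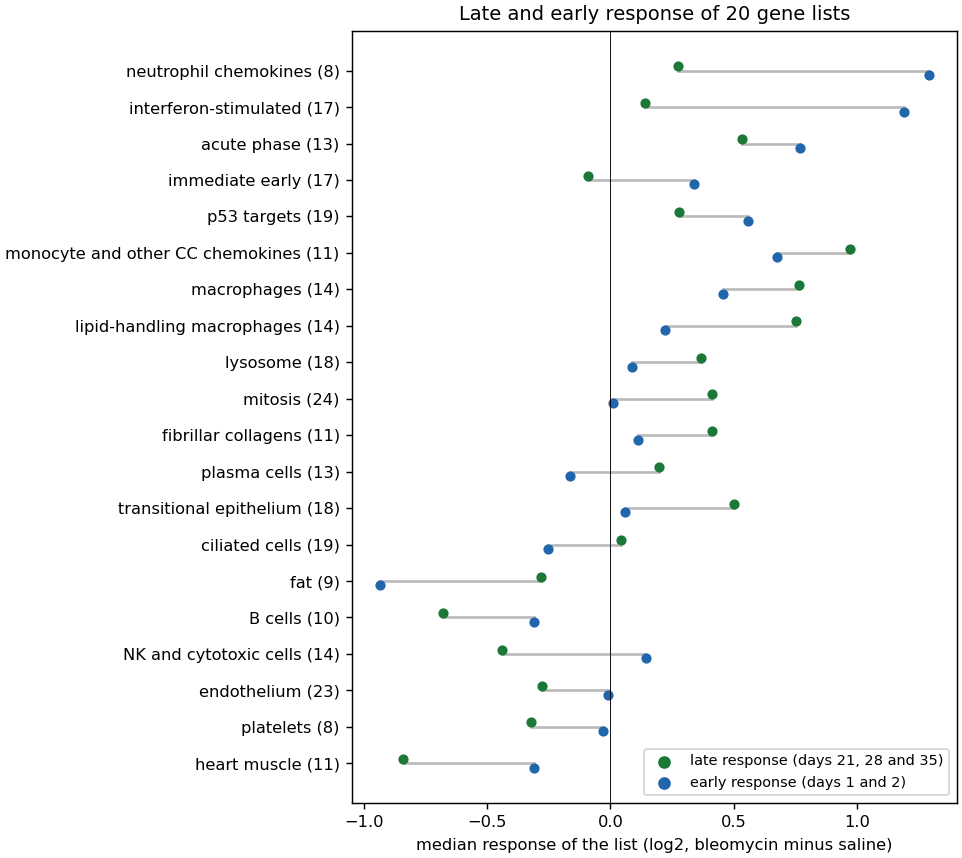
Median response over the measured genes of 20 lists (log2 bleomycin minus saline, horizontal axis), late in green above early in blue for each list. Interferon-stimulated genes stand at 0.14 late and 1.19 early, lipid-associated macrophage genes at 0.75 and 0.22, and cardiac genes at -0.84 and -0.31.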

How the data were processed

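Whole-lung RNA of 111 mice was measured on Affymetrix whole-genome mouse arrays, 1 array per mouse. The authors deposited log2 values made from the scans by robust multi-array average (RMA), which corrects background, brings all arrays to 1 distribution and summarises each probeset; they dropped probes without a unique place in the genome, and removed 1 saline mouse of day 14. RMA makes levels comparable between arrays but not between genes. Of 32688 probesets, 27871 stood for 1 gene, 314 for several and 4503 for none. For each of 15707 genes the probeset of highest variance was kept. limma 3.58.1 in R 4.3.3 was fitted to all 14 groups with 1 mean each, and p-values were adjusted over all genes by Benjamini and Hochberg. The fit was tested on simulated data. Deviations are from the saline mean of the day. Nothing states whether mice shared a batch, so p-values measure only the spread between these mice, and the number of arrays limits precision. Named genes were the 12 with the largest called difference in each direction, up to 8 of each course and up to 4 per direction of a list; Ltf, Mmp9, Zmat3, Itih4, Fgb, Timp1, Krt5, Krt14, C1qa and Apod, and members just beside a threshold, were chosen after their values were seen. The members and lists were chosen with earlier results of these data known. Gene names came from the platform's annotation, and 15608 of them matched RefSeq. Alternatives were other probeset choices, filters, saline groups, thresholds and left-out days or mice.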

Additional observations from a re-analysis of the deposited data

Results flagged for a closer look

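The difference between periods was tested gene by gene, and 61 genes were higher and 42 lower late. The counts themselves were not tested. Within the early period, the response of 6 of 44 named genes differed between day 2 and day 1: day 2 exceeded day 1 by 1.43 for Oas3, 1.34 for Cxcl11, 1.31 for Irf7, 1.29 for Ifi213, 1.24 for Mx2 and 0.94 for Gm9706.

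In 31 of 240 groups of 8 mice tested for 24 genes, 1 mouse lay far from the other 7, 9 times among bleomycin and 22 times among saline groups. Chance flags about 1 in 20 groups. The values give the gap to the nearest mouse as a share of the group's range, with 0.526 as the critical value.

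Saline mouse 4 of day 21 was the high mouse for Ighm (0.8674), Cxcl10 (0.7224), Oasl1 (0.7641), an immunoglobulin kappa variable gene (0.7453), Stra6l (0.708), Igha (0.6342), Jchain (0.6081) and Saa3 (0.5827), and the low one for Mmp12 (0.5779). Bleomycin mouse 4 of day 21 was low for Mmp12 (0.6962) and Stra6l (0.5311).

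Bleomycin mouse 8 of day 28 was high for Acod1 (0.812), Cxcl1 (0.6591), Cxcl2 (0.6232) and Il6 (0.5718). Bleomycin mouse 3 of day 35 was high for Dmp1 (0.5521), mouse 6 of day 2 for Calml3 (0.7019) and mouse 8 of day 1 for Ighm (0.8603).

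Among the other saline mice, Ighm was high in mouse 1 of day 1 (0.845), mouse 7 of day 2 (0.7689) and mouse 4 of day 28 (0.5293). Mouse 7 of day 2 was also high for Dmp1 (0.707) and Jchain (0.6091), and mouse 8 of day 2 for Cxcl2 (0.7103) and Cxcl3 (0.553). Mouse 7 of day 1 was low for Gp2 (0.619) and Calml3 (0.5468). Single high values were those of Cxcl1 (0.5571, mouse 1 of day 35), Acod1 (0.5694, mouse 6 of day 35), Saa3 (0.5807, mouse 7 of day 35) and Il6 (0.6073, mouse 5 of day 28).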

How the results depend on the processing

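Without day 1, 90 genes were lower late, 149 rose early, 78 early changes were reduced, 33 gone and 4 reversed; without day 2, 94 genes were higher late, 59 rose early, 7 were gone and 4 undecided. Irf7, Mx1, Oas3, Il6, Saa3, Acod1, Cxcl5, Cxcl11, Ly6i, Slfn4 and Ighm did not pass for the difference without day 2, Gp2 and Ighm without day 1, Il6 and Ighm without day 35, Cxcl3 against pooled saline, and Cxcl11 with the probeset of highest level (-0.08, adjusted p = 0.403). Without day 21, 31 were undecided and 1 recurred; without day 28, 62 genes fell late; without day 35, 1 had reversed and 1 recurred. Against all saline mice pooled, 12 genes fell early, 9 were undecided and 1 had reversed, and of the 103 called differences 74 were called again and 1 (Ttr) changed sign. Without the 30% dimmest genes, 6 were gone and 44 gained late. If an early change was taken on day 1 or on day 2, 92 were reduced, 36 gone and 4 reversed; at any fold, 72 persisted, 3550 were reduced, 2289 gone, 29 undecided, 537 reversed and 705 recurred. Cdkn1a, Chl1, Ereg and Fgg, without a called difference, passed under 2 to 4 settings each, pooled saline among them. Without a fold threshold 2557 genes were higher and 1910 lower late. With gone defined by 2-fold, an alternative added after seeing the data like all left-out mice but bleomycin mouse 3 of day 35, 22 were gone and 6 undecided. Under the 22 settings that refitted the values, no gene moved between persisted and gone. This is a weak check, because persisted needs a late response over 2-fold and gone an interval inside 1.5-fold. Of the 90 early changes up and 21 down, 65 were sorted as before without day 2. The number was 77 against pooled saline and 83 with the mean of the gene's probesets. Under the other refitted settings it was 86 or more, and the ordinary contrast without moderation kept all of them.

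Leaving out each of 6 arrays in turn gave 57 to 68 genes higher and 40 to 54 lower late, 90 to 104 up and 21 to 23 down early, 94 to 130 up and 33 to 44 down late, 29 to 33 persisted, 50 to 60 reduced, 8 to 15 gone, 17 to 19 undecided, 57 to 74 gained late, and 2 reversed and 3 recurred each time. Beside Ttr, differences that turned in sign belonged to named genes without a called difference: Ccl12 without day 2 (0.0019), Cdkn1a (0.047) and Chl1 (-0.20) without day 1, and Ms4a6d against pooled saline (0.18), without day 2 (0.26) and without day 28 (0.060), and from -0.108 to 0.055 over the left-out arrays, above 0 without bleomycin mouse 4 and without saline mouse 4 of day 21. With the replicate number as a block (correlation 0.0524), 63 genes were higher and 42 lower late. Of 40 bleomycin arrays, 7 correlated best with the saline array of their own number. The median correlation with that array was 0.0472, 0.0614, 0.104, -0.086 and 0.154 on days 1, 2, 21, 28 and 35. With saline arrays of other numbers it was -0.0191, 0.00939, -0.0355, 0.0234 and -0.0422. These values do not decide whether mice of 1 number shared a cage or batch, which no label states. Recurrence could not be computed from the arrays of the 5 days alone. The causes of these changes were not tested. Genes near background are compressed by RMA, and a missed test does not show equal responses.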

Other observations

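Genes of the immediate-early response, transcription factors that cells switch on within minutes of a stimulus, were higher early than late in part. Of 17 measured, 3 rose and 8 fell late, 7 rose and 1 fell early, and the difference was lower late for 9 and higher for none, with medians of -0.09 late and 0.34 early. Fosl1 rose in both periods (0.54 late, 1.56 early; difference -1.02, adjusted p = 0.00567), and no member both rose early and fell late by the test. Nr4a1 was at -1.06 late and -0.09 early (difference -0.97, adjusted p = 0.0169), but its saline means ran from 10.56 on day 28 to 12.12 on day 21 (adjusted p = 0.000265), and against pooled saline it was at -0.87 late and -0.43 early (difference -0.44, adjusted p = 0.165). Jun, the partner of the Fos proteins, was at -0.40 late and 0.12 early, and Myc at 0.64 and 0.60. How fast each lung was taken is not given in the sources used here, and its part in these values was not tested.

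Complement genes moved in both directions. Of 10 measured, 7 rose and 1 fell late and 9 rose early. The genes of C1q, which macrophages make, were higher late: C1qa, C1qb and C1qc were at 0.98, 1.17 and 0.98 late and 0.48, 0.63 and 0.44 early, each passing for the difference (adjusted p = 0.0162, 0.0193 and 0.00674). Cfb, an inflammation-induced factor of the alternative pathway, was lower late (0.46 late, 1.13 early; difference -0.66, adjusted p = 0.00307). Of 16 markers of myofibroblasts and smooth muscle, 4 rose and 11 fell late, none rose and 3 fell early, and the difference was lower late for 7 and higher for 2, with medians of -0.49 late and -0.13 early, beside fibrillar collagens of which 8 of 11 rose late. By day the median of these 16 markers was -0.49, 0.20, -0.17, -0.11, -0.62, -0.52 and -0.23. The early period therefore combines 2 days of opposite sign, and day 1 was about as low as the late days.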
